A study of Mus musculus with 9 samples.

Results

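Striatal RNA of mice injected with MPTP was compared with striatal RNA of mice injected with saline, on 3 arrays against 3. The arrays were chosen by their titles, which name them MPTP 1 to 3 and Control 1 to 3, and they are 6 of the 9 arrays of the series. The other 3 come from mice injected with methamphetamine (METH), and they entered the estimate of spread, the filter on dim probe sets and the choice of the brightest probe set of a gene, but no difference. All 9 arrays are from male C57BL/6J mice aged 56 days, the labels describe the 3 samples of each condition as biological replicates, and the tissue is given as left and right striatum. The sources used here do not give the MPTP dose, the number of injections or the interval before dissection. Neither a measure of dopamine loss nor any other readout of the lesion was used here, so how far the toxin acted in each mouse is not known from these values.

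The striatum is the main input nucleus of the basal ganglia. Most of its neurons are inhibitory spiny projection neurons, which send axons along a direct or an indirect pathway and receive dopamine from axons whose cell bodies lie in the midbrain. MPTP crosses into the brain, where monoamine oxidase B of glial cells turns it into MPP+. The dopamine transporter carries MPP+ into dopamine terminals, and there it blocks complex I of the respiratory chain. The messenger RNA of the damaged terminals is made mostly in the midbrain, so striatal RNA reports on local neurons, glia, vessels and any ventricular tissue taken with them. Astrocytes near damaged terminals are known to make more of the filament protein GFAP, and microglia to take up debris. In bulk RNA of this kind, fewer cells of a type and less RNA per cell cannot be told apart.

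Every array gave a linear signal, in arbitrary intensity units, for 22690 probe sets, which are groups of short probes read as 1 value. A gene was represented by its brightest probe set over all 9 arrays, and the 7964 of 12393 genes whose probe set had a mean log2 signal over these arrays above that of a signal of 741 were tested with limma on log2 signal. Taken over the 6 compared arrays alone, the brightest probe set was another one for 60 of the 7910 genes that pass either way. "Past the test" means a Benjamini-Hochberg adjusted p under 0.05 over these 7964 genes, the ± after a log2 fold change (MPTP minus control) is its standard error, and n is 3 arrays in each group throughout. The smallest p that an exact permutation test of 3 arrays against 3 allows is 0.1. Spearman correlations between the 6 arrays were 0.97 to 0.985, and those between groups overlapped those within groups. Control 1 had the highest of the 6 signals for 1780 genes and the lowest for 1605. The 3' to 5' signal ratio of the transferrin receptor control probe sets, a gauge of RNA integrity, was 2.2 to 2.81 in control and 2.76 to 3.73 in MPTP arrays, while the ratio for pyruvate carboxylase was 2.46 to 3.38 and 2.16 to 2.95. The part of RNA integrity in the differences described here was not tested. The striatal genes Penk, Tac1, Drd2 and Ppp1r1b were bright on all 6 arrays, with lowest signals of 47496 for Penk, 19659 for Tac1, 14795 for Drd2 and 27711 for Ppp1r1b.

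The 1 gene that rose past the test was Gfap, which encodes the main intermediate filament of astrocytes, with a 2.2-fold higher signal in the MPTP striatum. Its signal was 5403, 5020.2 and 6436 on control 1, 2 and 3, and 13596, 11350.3 and 12025 on MPTP 1, 2 and 3. The lowest MPTP array had a signal well above the highest control array, so the groups did not overlap. The log2 fold change was 1.14 ± 0.13 (limma adjusted p = 0.0382). A second Gfap probe set read 1930.1, 2293 and 2366.5 on the control arrays and 6039, 4994 and 4723 on the MPTP arrays. Its log2 fold change was 1.26 ± 0.13 in a limma fit of all 13584 probe sets past the filter. In that fit both Gfap probe sets passed, with adjusted p-values of 0.0374 and 0.0365, and 0 of the other probe sets did.

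The promoter of Gfap is shown because Gfap is the 1 gene past the test. The sequence, from RefSeq (GRCm38.p6), is chr11:102897171-102897450 on the minus strand, written 5′ to 3′, with 250 bases before the transcription start and 30 from it. Capitals mark a match to TTCNNNGAA, the palindrome bound by STAT factors, which begins at position -2 from the start.
Gfap: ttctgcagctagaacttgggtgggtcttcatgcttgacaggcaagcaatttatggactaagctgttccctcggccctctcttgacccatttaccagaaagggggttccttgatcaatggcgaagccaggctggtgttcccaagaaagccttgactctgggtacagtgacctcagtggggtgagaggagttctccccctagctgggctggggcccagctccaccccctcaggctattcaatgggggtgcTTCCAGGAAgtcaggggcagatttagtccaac
Over a window of 250 bases before to 50 after the start, searched on both strands, TTCNNNGAA was found in 9.55% of 27025 genes, in 7.78% of the 6464 tested genes with a promoter, and in 1 of the 9 tested reactive astrocyte genes with one, which is Gfap. A match describes letters and not binding.

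Gfap was 1 of the 7964 genes past the test, which is 0.0126%. The call was lost without any 1 of control 1 (adjusted p = 0.323), control 2 (0.255), METH 1 (0.0531), METH 2 (0.0516), METH 3 (0.099), MPTP 1 (0.304), MPTP 2 (0.0763) or MPTP 3 (0.301). The log2 fold change of Gfap stayed between 1.06 and 1.19 over these fits and was 1.24 without control 3. The call was also lost with MPTP and control arrays alone (0.112), array weights (0.0554), centring each array on its median (0.0813) and no filter on dim probe sets (0.143). Timp2 passed beside Gfap without control 3. Timp2, a tissue inhibitor of metalloproteinases, had signals of 9541, 10303 and 20559.9 on the control arrays and 22626, 19276 and 21676 on the MPTP arrays. Control 3 alone lay within the MPTP range of Timp2, and its log2 fold change was 1.09 ± 0.12 without control 3 (adjusted p = 0.0312) and 0.74 ± 0.24 with it (0.851).

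**Figure D1:**
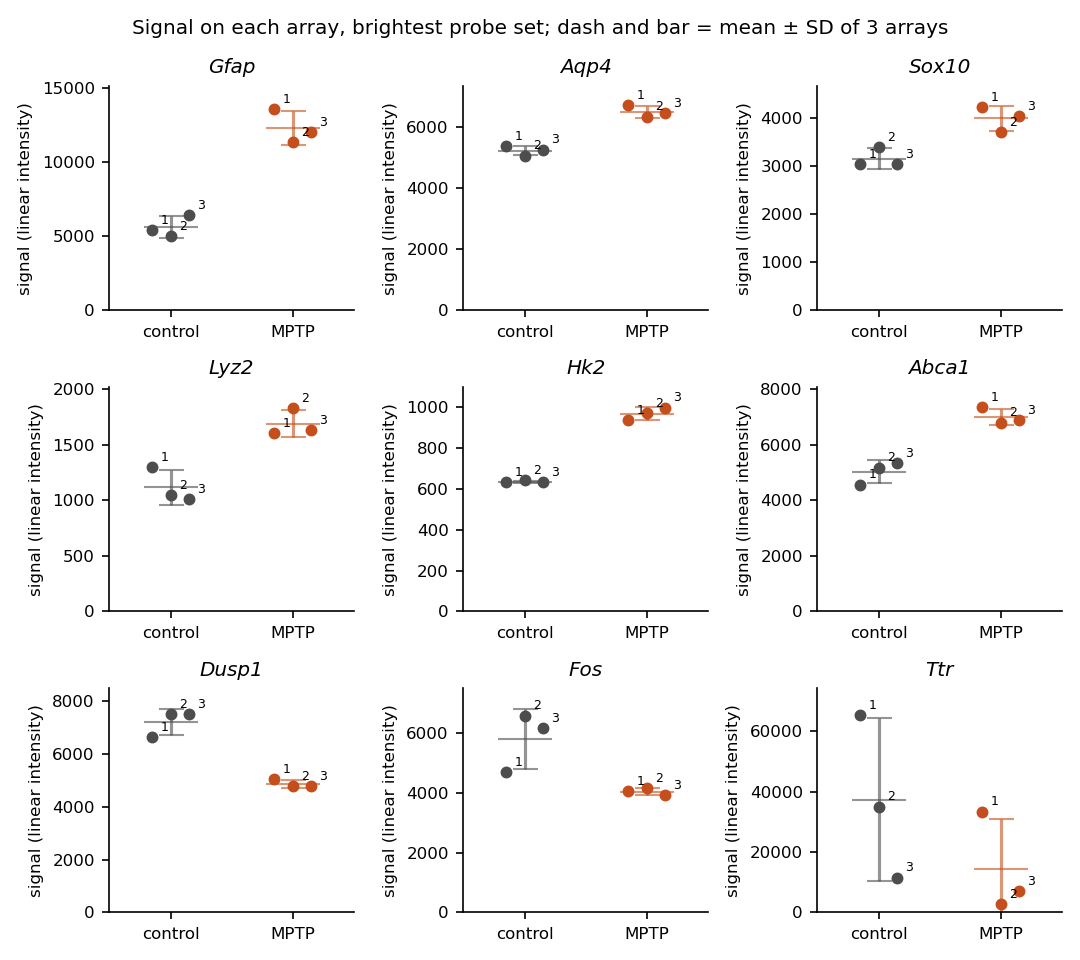
Signal (linear intensity) of the brightest probe set of 9 genes on each of the 3 control and 3 MPTP arrays; numbers are replicate numbers, and the dash and bar are the mean ± SD of 3 arrays. The 3 Gfap points of MPTP lie between 11350.3 and 13596, above a highest control point of 6436, while the Ttr points of the groups overlap.

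Across all tested genes the differences were small. The median log2 fold change was 0.0064 and the median of its size was 0.0921, against a median standard error of 0.122. There were 8 genes with a log2 fold change above 1 in size, 7 higher and 1 lower after MPTP. An unadjusted p under 0.05 was found for 437 genes, or 5.49% of those tested, with 282 higher (3.54%) and 155 lower (1.95%). This split of higher against lower depended on scaling: it was 229 against 201 after quantile normalization, 235 against 217 after cyclic loess and 179 against 235 after centring each array on its median. The groups did not overlap for 897 genes (11.3%), with 488 higher (6.13%) and 409 lower (5.14%), and the log2 fold change was above 0 for 51.8% of genes and below 0 for 48.2%. The counts given for gene lists in the paragraphs that follow are to be read against these percentages. With no true difference, a share near 0.05 of genes is expected at an unadjusted p under 0.05. For groups that do not overlap, that expected share is near 0.1. The totals of 5.49% and 11.3% lie near these shares.

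**Figure D2:**
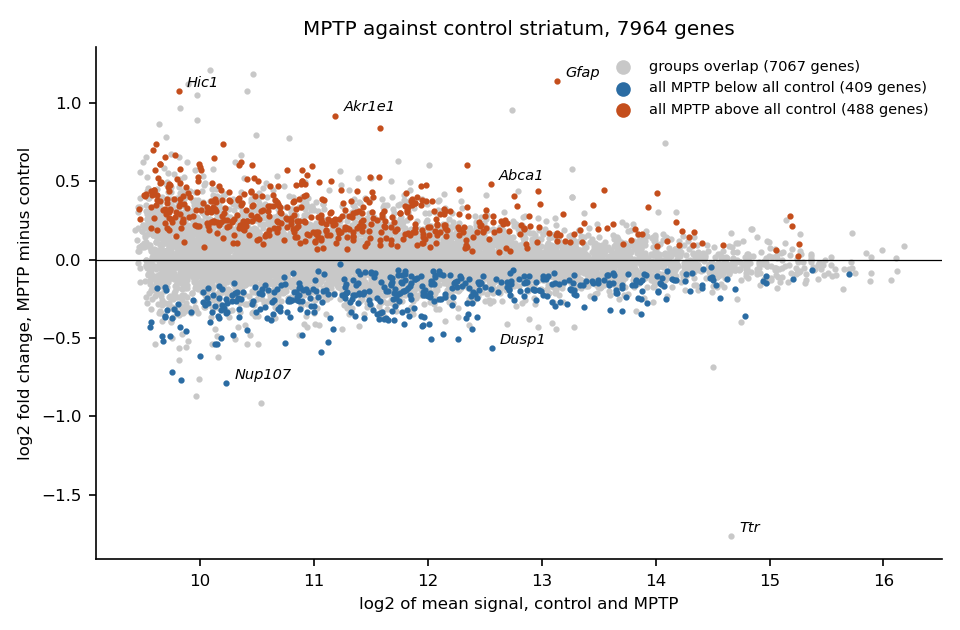
Log2 fold change (MPTP minus control, vertical) against log2 of the mean signal of both groups (horizontal) for 7964 genes; colours mark the 488 genes with all MPTP arrays above all control arrays and the 409 with all below. Gfap is the highest of the coloured points, and Ttr, the lowest point, is not coloured because its groups overlap.

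Homeostatic astrocyte genes, which resting astrocytes express, were mostly higher by small amounts. Of 27 tested genes of this list, 18 were higher and 9 lower, with a median log2 fold change of 0.08. There were 4 higher and 0 lower at an unadjusted p under 0.05, against 3.54% of all genes higher. The signal of Aqp4, the water channel of astrocyte endfeet, was 5359, 5048 and 5247 on the control arrays and 6699, 6327 and 6432 on the MPTP arrays. That is a separation of the groups with a log2 fold change of 0.31 ± 0.08 (limma adjusted p = 0.692). A second Aqp4 probe set, with 4177, 4335 and 4143 against 5193, 5579.8 and 5414, was separated as well, at 0.35 ± 0.09. Kcnj10, the potassium channel that buffers extracellular potassium, had 2963, 3436 and 3596 against 4408, 4053 and 4348, without overlap (0.36 ± 0.10). Clu, a secreted chaperone, has 4 probe sets past the filter, and each of them separated the groups, with log2 fold changes of 0.24 to 0.37. Apoe, the lipid carrier of astrocytes, had 0.22 ± 0.10. S100b, a calcium-binding protein, had 8432, 8389 and 8414 in control and 10394, 10471 and 9981 in MPTP, which do not overlap, though its standard error in the shared fit was wide (0.29 ± 0.13). None of the genes named in this paragraph passed the test.

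Reactive astrocyte genes other than Gfap were mostly dim. Of the 24 listed genes other than Gfap 10 were tested, 6 of them higher and 4 lower, with a median of 0.11 that was 0.04 without control 3, 0.05 without MPTP 2 and -0.02 with a filter at the 60th percentile, which leaves 4 genes. Vim, another intermediate filament of reactive astrocytes, had 3244, 3204 and 3201 in control and 4564, 4071 and 3352 in MPTP, with all MPTP arrays higher by margins that differed widely (0.30 ± 0.13, limma adjusted p = 0.873). Cp, the copper carrier ceruloplasmin, had -0.62 ± 0.33 with overlapping groups. With no filter, 22 of the 24 genes had a value, 16 were higher, and the groups separated for 4 genes, all higher (Vim and the 3 named next), where 6.25% of 12393 genes were higher and 4.64% lower in that way. The dim genes named next were chosen after their values were seen. Cd44, a hyaluronan receptor, read 554, 447 and 399.6 on the control arrays and 810.5, 709 and 761 on the MPTP arrays. Osmr, the oncostatin M receptor, read 542, 453 and 453 against 714, 735 and 728. Serpina3n, a secreted protease inhibitor, read 115, 60.5 and 121 against 177, 209 and 170.4. These 3 genes had all MPTP arrays above all control arrays, and their adjusted p-values in the limma fit without a filter were 0.714 to 0.944.

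Microglia and macrophage genes were higher after MPTP for 28 of 31 tested genes, with a median of 0.20 and 0 past the test. With no filter 34 of 41 were higher, with 7 higher and 1 lower at an unadjusted p under 0.05. Of the 31 genes 9 were higher and 0 lower at an unadjusted p under 0.05, and 12 had all MPTP arrays above all control arrays, against 3.54% and 6.13% of all genes. Lyz2, the lysozyme of macrophages, had signals of 1302, 1046 and 1010.5 on the control arrays and 1608, 1829 and 1634 on the MPTP arrays. Its groups were separate, with control 1 the nearest to the MPTP arrays (0.60 ± 0.16, limma adjusted p = 0.692). Ly86, a partner of a toll-like receptor homologue, had 2514, 2052 and 2916 against 3491, 3059.8 and 4215, again without overlap. Fcrls, a receptor-like gene that marks resident microglia, had 1885, 2288 and 2264 in control and a narrow 2702, 2746 and 2783 in MPTP (0.36 ± 0.10). Cathepsin S (Ctss), a protease of antigen presentation, had 8041, 6642 and 6762 against 9545, 8349.6 and 9453. Cd53, a tetraspanin of white blood cells, had 0.30 ± 0.09, P2ry12, a purine receptor of resident microglia, 0.22 ± 0.10, and Tyrobp, the adaptor of Trem2, 0.24 ± 0.10. Genes used to mark microglia did not all show this difference: Cx3cr1 had 0.01 ± 0.19, Csf1r 0.04 ± 0.10 and Aif1 0.05 ± 0.13, each with overlapping groups. The sign turned for Cx3cr1 and Csf1r when arrays were centred on their medians and for Aif1 after quantile normalization or cyclic loess. Aif1 would not pass the filter if it were set over the 6 compared arrays alone.

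The summed signal of the 31 genes was 84526 to 94768 in control and 100762 to 104255 in MPTP arrays, so the groups did not overlap on this measure. The count of 9 genes was 4 without control 2 and 5 without MPTP 3, with medians of 0.16 and 0.18. Blood also carries myeloid cells. All 4 tested of 18 listed blood genes were higher, but with no filter 8 of 14 were higher and 6 lower, with 0 higher and 2 lower at an unadjusted p under 0.05. The summed signal of the 4 genes was 4078 to 5350 in control and 4627 to 6260 in MPTP arrays, and these ranges overlap. Hbb-b2, a haemoglobin gene, had 776, 423 and 692 against 795, 802 and 1173 (0.57 ± 0.23), with a control mean below the filter. The part of blood in the microglial difference was not tested.

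**Figure D3:**
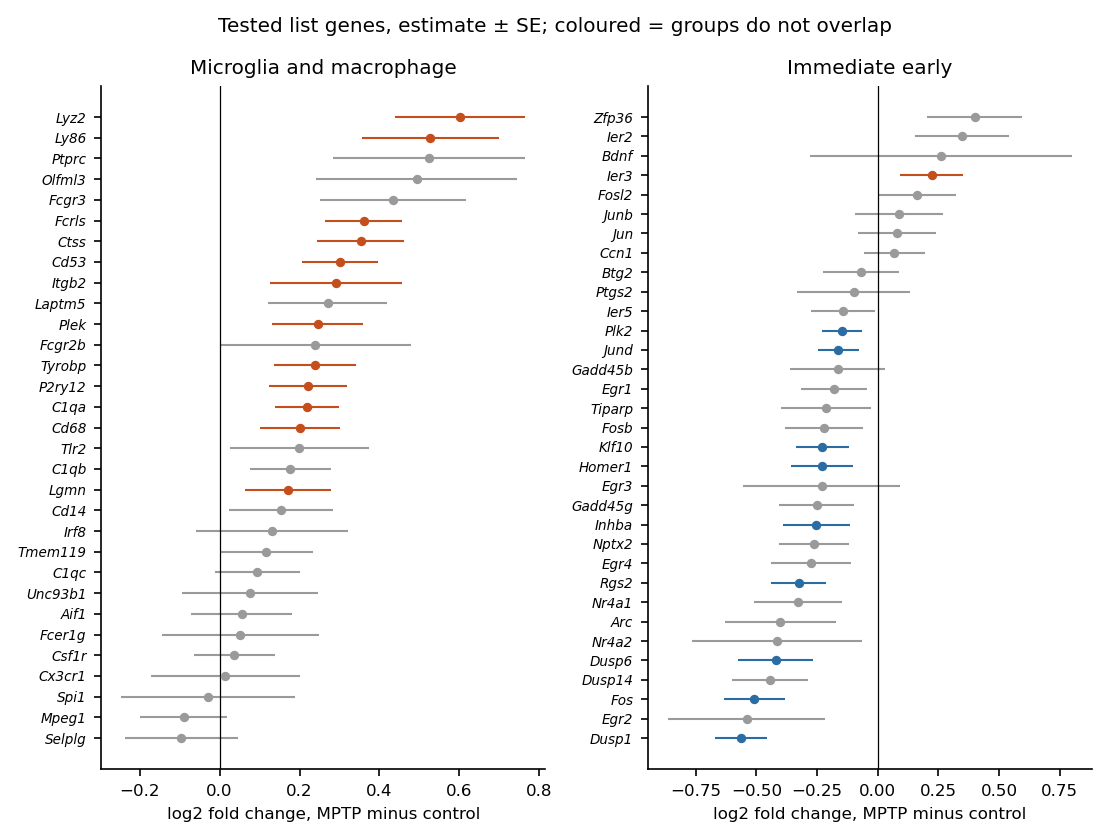
Log2 fold change ± SE (MPTP minus control) of each tested gene of the microglia and macrophage list (31 genes) and the immediate early list (33 genes); coloured points are genes whose groups do not overlap. Of the microglial genes 28 lie to the right of 0 and 3 to the left, and of the immediate early genes 8 lie to the right and 25 to the left.

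Complement and lysosomal genes share members with the microglial list and are read with that in mind. All 6 tested complement genes were higher, and with no filter 9 of 14 were. C1qa, a chain of the first complement component made by microglia, had 5414, 4931 and 5339 against 6134, 6103 and 5988, a separation of 0.22 ± 0.08, while C1qb and C1qc had 0.18 ± 0.10 and 0.09 ± 0.11. In the lysosomal list 23 of 30 genes were higher, at a median of 0.10. Of these, 3 genes were higher at an unadjusted p under 0.05, a count that was 6 without control 1, 5 without control 3 and 1 without control 2 or without MPTP 3. Without the 3 genes shared with the microglial list, 20 of 27 were higher with a median of 0.08. Cathepsin H (Ctsh) had 941, 684 and 1165 against 1202, 1301 and 1314, where MPTP 1 lay just above control 3. All 8 tested cytokine and NF-kB genes were higher, with a median of 0.19, but their groups overlapped for every one of them, and Il6ra, the largest at 1.07 ± 0.71, rested on control 2, without which it was -0.03 (signals of 1629, 163 and 1599 against 1816, 1398 and 1565). With no filter 19 of 23 genes of that list were higher and 4 lower. The groups then separated for 3 higher genes and 1 lower, where 6.25% of 12393 genes were higher and 4.64% lower in that way. Il1b, Tnf and Ccl2 were below the filter and their groups overlapped, at -0.21, -0.61 and 0.18.

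Of 15 tested interferon-responsive genes 12 were higher, with a median of 0.20 and 3 genes at an unadjusted p under 0.05, all higher, where 3.54% of all genes were. Irgm1, a GTPase that acts against bacteria inside cells, read 782, 684 and 1037 on the control arrays and 1236, 1157 and 1160.2 on the MPTP arrays. The MPTP values lay close together and above a scattered control group (0.53 ± 0.14, limma adjusted p = 0.692). Irf1, a transcription factor of the interferon response, read 995, 1446 and 1812 against 2269, 2012 and 1874 and was separated by a narrow margin (0.57 ± 0.23). Rsad2, the antiviral protein viperin, read 874, 1063 and 976 against 1165, 1258 and 1218. The median was 0.09 without control 1, and the count of 3 was 1 without MPTP 2. Oas1b, another gene of this list, was below the filter, and it passed when no filter was used (adjusted p = 0.0299), as 1 of 2 genes or 0.0161% of 12393. Its signals of 269.7, 235 and 243 in control and 660.5, 624 and 575 in MPTP gave a log2 fold change of 1.32 ± 0.11 with separate groups.

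The promoter of Irgm1, the interferon-responsive gene of smallest p, is printed for a motif that 8 of 14 genes of this list hold. Capitals mark GAAATAGAAA, a match to the core of the interferon-stimulated response element (GAAA, any 2 bases, GAAA), which begins at position -30 from the start. The sequence is chr11:48871391-48871670 on the minus strand (RefSeq, GRCm38.p6), with 250 bases before the start and 30 from it.
Irgm1: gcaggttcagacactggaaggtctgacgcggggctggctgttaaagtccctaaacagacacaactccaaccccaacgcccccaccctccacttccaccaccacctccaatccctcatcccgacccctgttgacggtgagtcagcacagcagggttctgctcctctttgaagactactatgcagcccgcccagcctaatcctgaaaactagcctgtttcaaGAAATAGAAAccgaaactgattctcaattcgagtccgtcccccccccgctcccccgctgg
Searched on both strands over 250 bases before to 50 after the start, this core was found in 3.99% of 27025 genes, in 3.87% of tested genes and in 8 of 14 tested interferon-responsive genes with a promoter, among them Irgm1 and Rsad2. The list was made of genes known for this response, so the share describes the list.

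Myelin and oligodendrocyte genes were higher for 24 of 25 tested genes, with a median of 0.16 and 0 past the test. At an unadjusted p under 0.05 there were 5 higher and 0 lower, against 3.54% of all genes higher. The count of 5 was 10 when all probe sets of a gene were averaged. It was 4 without control 1, MPTP 1 or MPTP 2, 6 without control 3 and 7 without control 2 or MPTP 3. Of the 25 genes 21 were higher without control 1, with a median of 0.14, and 22 without MPTP 1 or MPTP 3. Sox10, the transcription factor that sets oligodendrocyte identity, had 3033, 3398 and 3037 on the control arrays and 4227, 3709.9 and 4038 on the MPTP arrays. All 3 of its probe sets separated the groups, with log2 fold changes of 0.22 to 0.34. Cldn11, a tight junction protein of myelin, had 5580.4, 5367 and 5559 against 6452, 6757 and 6779, with little scatter within either group (0.28 ± 0.08). Olig2, a lineage transcription factor, had 2023, 2347 and 2249 against 2668, 3035 and 2557, and Gal3st1, which makes the myelin lipid sulfatide, had 1195, 1129 and 1154 against 1409.98, 1305 and 1519. The major myelin proteins did not all differ in this way: Mbp, myelin basic protein, had 53730.3, 61339 and 59108 against 65199, 58510.2 and 55771, with overlapping groups (0.04 ± 0.11). Plxnb3, a plexin receptor, is outside this list and is 1 of the 10 genes of smallest p, with 1101, 1195 and 1219.6 against 1711, 1703 and 1631 (0.52 ± 0.10, limma adjusted p = 0.454). Sema4d, a semaphorin, had 3322, 2895 and 3687 against 4460.5, 4495 and 4709.6, and Sirt2, a deacetylase, had 5931, 7246 and 7255 against 10218, 8702 and 8646, both without overlap.

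Precursor cells of the lineage did not show this pattern as a list, with 5 of 8 genes higher and a median of 0.04 that was -0.0033 without control 3, 0.02 without MPTP 2 and 0.11 without control 2. Vcan, a proteoglycan of the matrix, was lower on all 3 MPTP arrays (-0.32 ± 0.11), and Pdgfra, the receptor that defines precursors, had 0.07 ± 0.12. The summed signal of the 25 myelin genes was 287230 to 317887 in control and 320934 to 340409 in MPTP arrays. Control 1 was the lowest array for this sum.

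Genes of lipid export followed a few members. Of 13 tested genes of the liver X receptor (LXR) pathway, which exports cholesterol from glia, 8 were higher and 5 lower, with 4 higher at an unadjusted p under 0.05 and a median of 0.06 (0.02 without MPTP 2). Abca1, the pump that loads cholesterol onto apolipoproteins, read 4561, 5173 and 5336 on the control arrays and 7331, 6789.5 and 6878 on the MPTP arrays. All 3 Abca1 probe sets had all MPTP arrays above all control arrays, with log2 fold changes of 0.35 to 0.71 (limma adjusted p = 0.672 for the brightest). Srebf1, a regulator of lipid synthesis, had 0.37 ± 0.13 with overlapping groups, and Lpcat3, which remodels phospholipids, had 0.25 ± 0.10 without overlap. The count of 4 was 2 without control 1, MPTP 1, MPTP 2 or MPTP 3, 1 without control 3 and 2 with no filter. Cholesterol synthesis genes did not share a direction, with 8 of 19 higher and 0 at an unadjusted p under 0.05 in either direction.

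Immediate early genes are transcribed rapidly and briefly when a neuron fires. They were lower after MPTP for 25 of 33 tested genes, with a median of -0.22 and 0 past the test. At an unadjusted p under 0.05 there were 5 lower and 0 higher, against 1.95% of all genes lower, and 9 genes had all MPTP arrays below all control arrays, against 5.14%. Dusp1, a phosphatase that switches off MAP kinases, read 6638, 7504 and 7505 on the control arrays and 5051, 4794 and 4769.9 on the MPTP arrays. The MPTP values were tight and below every control value (-0.56 ± 0.11, limma adjusted p = 0.454). Fos, the best known gene of this class, read 4679, 6583 and 6152 against 4057, 4145 and 3909, with control 1 the nearest to the MPTP arrays (-0.51 ± 0.13). Dusp6, a phosphatase of ERK kinases, read 4072, 4478 and 5033 against 3887, 2986 and 3299.7, and Rgs2, a brake on G protein signalling, read 13312, 15027 and 16131 against 13130.5, 11083 and 11244. In both, MPTP 1 lay just below control 1 and the other MPTP arrays well below it. A second Rgs2 probe set had overlapping groups, at -0.21.

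Other members of the class had wide or overlapping values. Arc, a synaptic protein, had 6311, 11895 and 12024 in control and 7717, 7357 and 6901 in MPTP, where control 1 lay below all 3 MPTP arrays. Egr2, a zinc finger factor, had 1094, 1831 and 2283 against 1508, 816 and 1205. Fosb had -0.22 ± 0.16 and Junb 0.09 ± 0.18, and Ier2 and Zfp36, at 0.35 ± 0.19 and 0.40 ± 0.20, were among the 8 genes with a higher value. The count of 5 genes was 10 without control 1, 2 without control 3 and 2 without MPTP 2, with medians of -0.22, -0.18 and -0.15. The summed signal of the 33 genes was 177789 to 209993 in control and 150245 to 172424 in MPTP arrays.

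The promoter of Dusp1 is printed because Dusp1 has the smallest p of the immediate early genes. Capitals mark TGACGTCA, the cAMP response element (CRE), which begins at position -143 from the start. The sequence is chr17:26508443-26508722 on the minus strand (RefSeq, GRCm38.p6), with 250 bases before the start and 30 from it.
Dusp1: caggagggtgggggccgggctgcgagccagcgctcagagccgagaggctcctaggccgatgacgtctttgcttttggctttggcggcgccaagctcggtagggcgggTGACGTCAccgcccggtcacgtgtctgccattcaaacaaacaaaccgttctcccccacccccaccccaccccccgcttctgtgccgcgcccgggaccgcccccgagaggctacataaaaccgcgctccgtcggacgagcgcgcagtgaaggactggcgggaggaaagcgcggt
TGACGTCA, searched on both strands over 250 bases before to 50 after the start, was in 2.03% of 27025 genes, in 3.62% of tested genes with a promoter and in 3 of 27 tested immediate early genes with one, which are Btg2, Dusp1 and Plk2. Btg2 had a log2 fold change of -0.07 ± 0.16 and Plk2 of -0.15 ± 0.08. The exact CRE letters were not in the Fos window.

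Of 18 tested circadian clock genes 14 were lower, with a median of -0.09 and 0 at an unadjusted p under 0.05. Per2, a repressor of the clock, had 1777, 2451 and 2040.2 against 1745, 1775 and 1496, with MPTP 2 only just below control 1. A second Per2 probe set had overlapping groups, at -0.05. Bhlhe40, another clock repressor, had -0.42 ± 0.23 with overlapping groups. The median was -0.13 without MPTP 1 and -0.02 without MPTP 2, the array with the lowest values for this list. The sources used here do not give the hour of dissection.

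Klf2, a transcription factor of vessel walls and quiescent cells, had 1146, 1589.6 and 1318 against 980.2, 886 and 901, all MPTP arrays lower (-0.54 ± 0.12). In the endothelial and mural list 17 of 23 genes were lower, at a median of -0.11 (-0.19 without MPTP 2) and 3 lower at an unadjusted p under 0.05. These were Acta2, the actin of smooth muscle (4837, 4498 and 4182 against 3139.6, 3661 and 3705), Sox18, an endothelial transcription factor (-0.37 ± 0.15), and Cd34, a surface protein of endothelium (-0.25 ± 0.10). The count of 3 was 0 without control 1 and 1 without control 3 or MPTP 3. The summed signal was 67774 to 72637 in control and 60922.5 to 68327 in MPTP arrays, and these ranges overlap.

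Choroid plexus and ependymal genes mark ventricular tissue that can be taken with the striatum. Ttr, the transthyretin gene of the choroid plexus, ranged on the control arrays over 65370.4, 34984 and 11543 and on the MPTP arrays over 33342, 2853 and 7142. These spans overlap, and the log2 fold change was -1.76 ± 0.96. Of 23 listed genes 6 were tested, 5 of them lower, with a median of -0.32. The median was -0.20 without MPTP 3, -0.24 without MPTP 2 and -0.16 without control 1, and 3 of 6 were lower without MPTP 2 or control 1. It was -0.47 without control 3 and -0.45 without MPTP 1. With no filter 14 of 18 genes were lower, with a median of -0.51. At an unadjusted p under 0.05 there were then 2 lower and 0 higher, where 213 of 12393 genes were lower. The summed signal of the 6 tested genes was 18228 to 73687 in control and 8955 to 40739.8 in MPTP arrays. Igfbp2, a binding protein for growth factors that the choroid plexus also makes, had 1522, 1244 and 966 against 962, 673 and 784, with MPTP 1 just below control 3 (-0.62 ± 0.20). The part of ventricular tissue in the other differences was not tested.

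**Figure D4:**
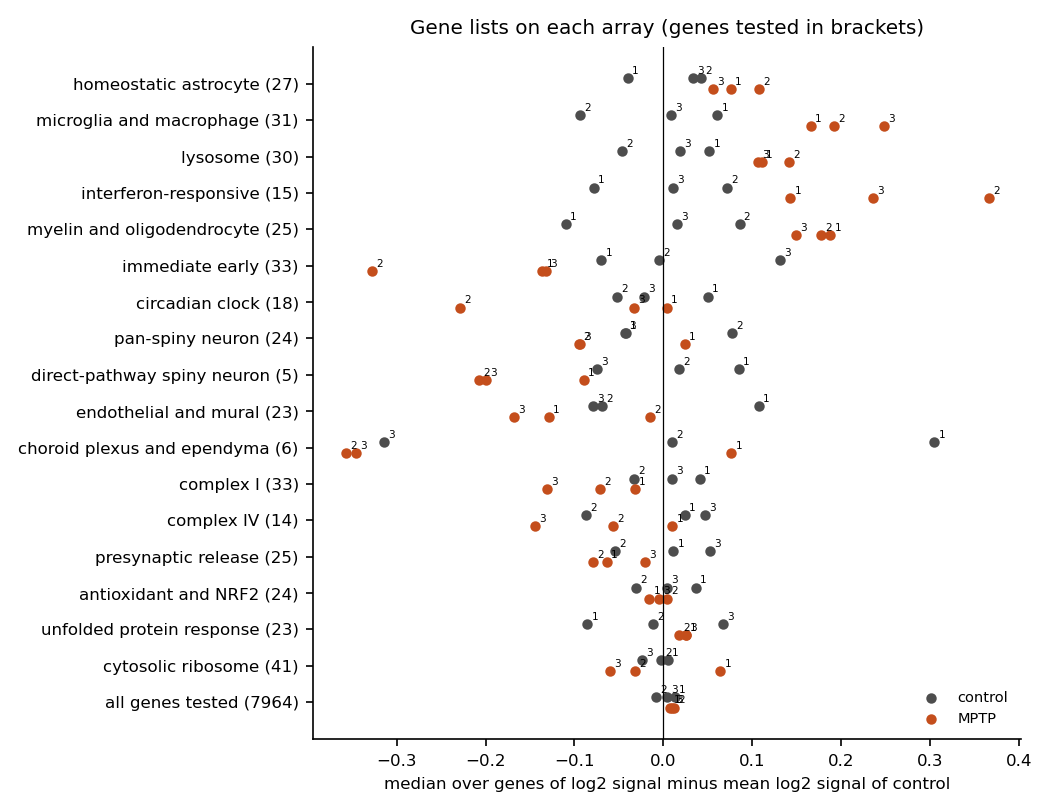
For each gene list, the median over its tested genes (number in brackets) of log2 signal minus the mean log2 signal of control, on each control and MPTP array; digits are replicate numbers. All 3 MPTP points lie to the right of all 3 control points for the microglial, lysosomal, interferon-responsive, myelin and homeostatic astrocyte lists, and to the left for the immediate early and direct-pathway lists, while the choroid plexus points are widely scattered in both groups.

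Dopamine genes were few on the arrays above the filter, at 4 of 18 listed. Th, tyrosine hydroxylase, the first enzyme of dopamine synthesis, had 1542, 1151 and 1057 in control and 1092, 1215 and 1078 in MPTP. Control 1 was the highest and the other arrays overlapped (-0.13 ± 0.16). Ddc, the next enzyme of that pathway, had 1502, 1044 and 1104 against 1932, 1608 and 1575, with all MPTP arrays above all control arrays (0.50 ± 0.16, limma adjusted p = 0.812). Slc6a3, the dopamine transporter that admits MPP+, was below the filter, with 606, 554 and 655 in control and 691, 605 and 729 in MPTP, and its groups overlapped. Drd1, Adora2a, Maob and Slc18a2 were not analysed here. Maoa, the other monoamine oxidase, had 0.25 ± 0.15 with overlapping groups, and of 9 tested genes of MPTP conversion and monoamine breakdown 6 were higher, with 0 at an unadjusted p under 0.05.

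Spiny projection neuron genes differed by small amounts. Of 24 genes shared by both pathways 18 were lower, with a median of -0.06, 0 at an unadjusted p under 0.05 and 0 with separate groups. Without control 2, 13 were lower and 11 higher, with a median of -0.03, and without MPTP 2, 14 were lower and 10 higher. Of 5 direct-pathway genes 4 were lower (median -0.16, or -0.27 without control 3), and of 4 indirect-pathway genes 3 were (2 of 4 without control 3 or MPTP 3). Tac1, the substance P precursor of the direct pathway, had 27008, 24939 and 22160.5 against 23137, 21322 and 19659, where MPTP 1 lay within the control range (-0.21 ± 0.10). Drd2, the dopamine receptor of the indirect pathway, had 19254, 20549.9 and 17885 against 18234, 18192 and 14795, and MPTP 3 alone lay below all control arrays. Penk, the enkephalin precursor of the indirect pathway, had -0.05 ± 0.10, and Ppp1r1b, which encodes the dopamine-regulated inhibitor DARPP-32, had -0.08 ± 0.11, so for both the difference was under its standard error. Sfxn1, a mitochondrial serine carrier listed as a direct-pathway marker, was lower on all 3 MPTP arrays (-0.23 ± 0.10). A second Sfxn1 probe set had overlapping groups, at -0.09. Interneuron genes were higher for 7 of 14, with Pvalb, the calcium buffer of fast-spiking cells, at 0.61 ± 0.30 with overlapping groups. The 1 gene of this list with separate groups was Reln, which was lower (-0.12 ± 0.10).

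Synaptic and axonal genes split by member. Of 25 presynaptic release genes 17 were lower, and the median was -0.05. There were 2 lower at an unadjusted p under 0.05, a count that was 6 without control 2, with a median of -0.11, and 1 without control 1, with a median of -0.03, or without control 3. Syn1, which tethers vesicles, had 18746, 13955 and 17718 against 13280.2, 13552 and 12498, with all MPTP arrays lower (-0.35 ± 0.12). Unc13a, which primes vesicles for release, had 3041, 3194 and 3157 against 2444, 2832 and 2029.8, also without overlap. Sypl, a synaptophysin-like vesicle protein, was the 1 presynaptic gene higher at an unadjusted p under 0.05 (0.22 ± 0.09). Its 4 probe sets past the filter ranged from -0.43 to 0.40. Over the 6 compared arrays alone, the brightest Sypl probe set was another one. Tubb3, the neuronal beta-tubulin, had 4049, 4339 and 4090.3 against 3583, 3177 and 3307, where the whole MPTP group lay below control (-0.31 ± 0.09). Gabrb2, a subunit of GABA-A receptors, had 2446, 2331 and 1992 against 2622, 2991 and 3586 and was higher on all MPTP arrays, while Grik5, a kainate receptor subunit, had -0.28 ± 0.10 and was lower on all of them. Cabp1, a neuronal calcium sensor, had 2696, 2428 and 2756 against 1745, 2075 and 1678 (-0.52 ± 0.11, limma adjusted p = 0.515).

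Respiratory chain genes differed by small amounts, with complex I, the complex that MPP+ blocks, lower in most members. At an equal trimmed mean, the median signal of an array was 1110.5 to 1126.8 in control and 1127.5 to 1178.2 in MPTP. The part of array scaling in differences this small was not tested. Of 32 tested complex I genes 26 were lower, with a median of -0.08 that was -0.05 without MPTP 3, and 24 to 30 were lower without any 1 MPTP or control array. There were 5 with all MPTP arrays below all control arrays, against 5.14% of all genes. Ndufb7, a subunit of complex I, read 8634, 9621 and 7679 on the control arrays and 7433, 7017 and 7201 on the MPTP arrays. Its groups were separate, and it was the 1 complex I gene at an unadjusted p under 0.05, a count that was 0 without control 1, control 2 or any 1 MPTP array and 0 with no filter. A second Ndufb7 probe set had overlapping groups, at -0.03. Ndufa4 was listed with complex I by its name but is now placed in complex IV, and it read 21293, 21527 and 21983 against 19735, 18625 and 18069.6, also separate. Complex IV with Ndufa4 had 12 of 15 genes lower and a median of -0.06, and without MPTP 3 it had 9 of 15 and -0.0075. Its median was -0.02 without control 3 and -0.10 without MPTP 1. Complexes II and III had 10 of 15 genes lower and a median of -0.08, which was -0.035 without control 1 and -0.05 without control 2. Complex V had 11 of 16 lower and a median of -0.03, with 8 of 16 and -0.01 without MPTP 3, -0.07 without control 2 and -0.055 without MPTP 1. Among mitochondrial import genes and carriers, Timm9, a chaperone between the mitochondrial membranes, had 1113, 991 and 888 against 684, 767 and 679, with an MPTP mean below the filter. Cytosolic ribosome genes had a median of -0.02 with 26 of 41 lower, and this was -0.06 with 29 lower without MPTP 1, -0.008 with 23 lower without control 2 and 0.01 with 19 lower without MPTP 3.

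Stress pathways showed no shared direction. Antioxidant and NRF2 genes were higher for 12 and lower for 12 of 24. Gstm1, a glutathione transferase, had 12296, 11321 and 11487 against 9267, 10204 and 9031, with all MPTP arrays lower (-0.30 ± 0.10), although near-identical family members may share its probes. The other 3 Gstm1 probe sets past the filter had overlapping groups, at -0.18, -0.14 and 0.12. Nfe2l2, the gene of NRF2 itself, had 0.24 ± 0.11. Unfolded protein response genes were higher for 15 of 23 (11 without control 1) and heat shock genes for 7 of 25 (15 without control 3), with 0 at an unadjusted p under 0.05 in either list. The 3 tested metallothioneins, which bind zinc, had values of both signs: Mt2 had 0.24 ± 0.09 and Mt1 0.03 ± 0.08, the latter below 0 with arrays centred on their medians, while Mt3 had -0.12 ± 0.12 with all MPTP arrays lower. Apoptosis genes were higher for 9 of 14 (6 without control 1) and proteasome genes for 11 of 34 (18 without MPTP 2), also with 0 at that p.

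Hk2 and Tasp1 had the smallest p after Gfap. Hk2, a hexokinase that commits glucose to glycolysis, read 633, 641 and 631 on the control arrays and 935, 969 and 997 on the MPTP arrays. The spread within each group was a small part of the gap between them, yet the adjusted p was 0.454 in limma (0.61 ± 0.10). All 3 control signals of Hk2 lay below the filter of 741, so it was tested only because other arrays were higher. Such a gene has to differ: of the 437 genes at an unadjusted p under 0.05, 39 had a control mean below and an MPTP mean above the filter, and 6 the reverse, against 166 and 59 of all 7964. Pdk1, a kinase that holds back pyruvate dehydrogenase, was also higher on all MPTP arrays (0.40 ± 0.13). A second Pdk1 probe set had overlapping groups, at 0.05. Of 21 glycolysis genes 9 were higher and 12 lower. Tasp1, a protease that cleaves nuclear regulators, read 946, 955 and 986 against 654, 709 and 653, all MPTP arrays lower (-0.52 ± 0.09). Its MPTP mean lay below the filter, and a dimmer Tasp1 probe set, itself below the filter, had all MPTP arrays higher, at 0.18. Nup107, a scaffold subunit of the nuclear pore, read 1313, 1760.1 and 1496 against 956, 760.2 and 929 (-0.79 ± 0.15). The nuclear pore list had 12 genes higher and 12 lower, with 3 in each direction at an unadjusted p under 0.05, so its members had no shared direction. The 3 higher were 1 without control 1, control 3 or MPTP 1, 0 without control 2, 2 without MPTP 2 or MPTP 3 and 1 with no filter, and the 3 lower were 1 without MPTP 1.

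The 30 genes with the smallest p held 23 higher and 7 lower genes, and in all 30 the groups did not overlap, which a small p favours. Besides Gfap their adjusted p-values were 0.454 to 0.692. Among the higher ones, Akr1e1, an aldo-keto reductase, had 1429, 1471 and 1971 against 3297, 2917 and 2903 (0.92 ± 0.22). Creb3l1, a membrane-bound transcription factor, had 0.60 ± 0.14, and Prkar2a, a regulatory subunit of protein kinase A, had 0.61 ± 0.14 with a control mean below the filter. Ell, a transcription elongation factor, had 810.4, 803 and 831 against 1097, 1108 and 1069.6, with little scatter in either group. Ubxn1, a ubiquitin-binding adaptor, was among the lower ones (-0.38 ± 0.10). By size, the highest value among genes whose groups did not overlap, after Gfap, was that of Hic1, a transcriptional repressor, with 857, 284 and 696 against 1119.7, 933 and 1505. It was 1.07 ± 0.36, control 2 had less signal than any other array, and the control mean lay below the filter. With no filter a second dim gene passed beside Oas1b: Pramel25 read 43.4, 39.1 and 40.9 in control and 4.57, 4.78 and 2.99 in MPTP (adjusted p = 0.037), signals far below the filter.

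Probe sets of 1 gene often disagreed. There were 3014 genes with 2 or more probe sets past the filter, and in 1446 of them (48.0%) all probe sets had the same sign of log2 fold change. Among the 117 of these genes whose brightest probe set was at an unadjusted p under 0.05, all probe sets had the same sign in 68 (58.1%). The share was 46.7% with no filter, 72.0% when the 60th percentile was the filter and 45.3% without MPTP 2. In the brightest and second brightest probe sets of the 117 genes, the median log2 fold changes were 0.29 and 0.01, and the sign was the same in 79 genes (67.5%), against 58.0% of all 3014. Of the 76 higher genes, the second probe set was also at an unadjusted p under 0.05 with the same sign in 10, and of the 41 lower genes in 0. Among all 3014 genes, whatever the p of the brightest, the second probe set was so in 108. These shares describe the arrays and are no test, because probe sets of a gene share RNA and arrays.

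**Figure D5:**
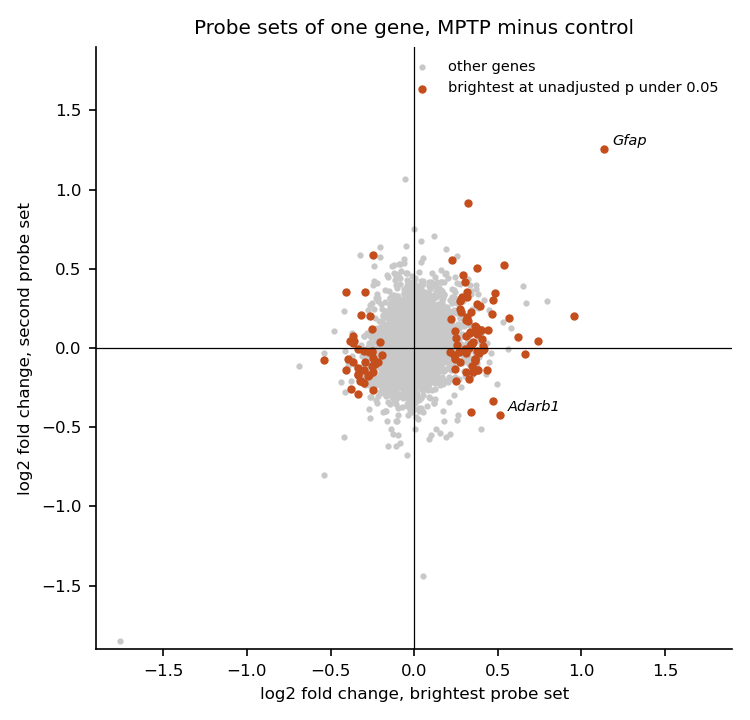
Log2 fold change (MPTP minus control) of the second brightest probe set (vertical) against that of the brightest (horizontal) for 3014 genes; coloured points are the 117 genes whose brightest probe set was at an unadjusted p under 0.05. Gfap stands alone at the upper right, at 1.14 and 1.26, and Adarb1 lies at the lower right with opposite signs.

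Of the 3014 genes, 9 had every probe set past the filter at an unadjusted p under 0.05 with 1 sign, and all 9 were higher after MPTP. They are Gfap, Abca1, Eloa, Sema4d, Aqp4, Chn2, Sox10, Clu and Slc44a1, with 2 to 4 probe sets each. In Gfap, Abca1, Sema4d, Aqp4, Chn2, Sox10 and Clu all of these probe sets also separated the groups. Eloa, a subunit of the elongin complex, had log2 fold changes of 0.31 to 0.50 over 3 probe sets, and Slc44a1, a choline transporter, had 0.28 and 0.31. Chn2, a regulator of Rac, had 0.29 and 0.32. Adarb1, an RNA-editing enzyme, was the opposite case: 1 probe set had 968, 1225 and 1179.8 in control and 1410.02, 1620.1 and 1776 in MPTP, and the other had all MPTP arrays lower, at -0.43 ± 0.19. The first is the brighter over all 9 arrays (mean log2 signal of 10.46 against 10.38) and the other over the 6 compared arrays (10.42 against 10.38), so the sign of Adarb1 turns with the arrays used to choose. Of the named genes with separate groups, Gstm1, Sypl and Vcan also had a probe set past the filter with the opposite sign. Of the 30 genes with the smallest p, 23 had a single probe set past the filter, so no second reading was available for them.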

How the data were processed

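Total RNA of striatum was hybridised to single-colour Affymetrix mouse arrays. The deposited values were taken as linear intensity, from the values and per the labels. RMA is named without version or settings in the submitters' processing notes, but the deposited values do not have the form RMA usually gives, so how probe sets were summarised by the authors is unsettled. The arrays share a trimmed mean of 2499.8 to 2499.9 (2% dropped from either end), the mark of scaling to 1 target before deposit, which leaves global shifts unseen.

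Of 22690 probe sets 20380 had 1 gene symbol, 691 several, 1555 none and 64 were array controls. Symbols were looked up in a RefSeq table of GRCm38.p6, which held 20351, and 0 changed. Deposited intensities were put on the log2 scale with no further normalization and no added constant. A filter dropped probe sets whose mean over 9 arrays was under the 40th percentile (9.53). limma 3.58.1 in R 4.3.3 fitted 1 mean per group on all 9 arrays (6 residual and 3.93 prior degrees of freedom), with two-sided tests and Benjamini-Hochberg adjustment. The fit was tested on simulated data. P-values measure the spread between the arrays of a group, and arrays of 1 tissue dissection per mouse limit the precision of every value by their number.

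The named genes are those past the test, the 30 of smallest p, up to 4 per list by p, a fixed set, genes whose probe sets agree at an unadjusted p under 0.05 and the 10 highest and 10 lowest with separate groups; other members of a list are named for their role, after their values were seen. The members and the 50 gene lists were chosen with earlier results of these data known, so lists are described by counts and medians with no set test. Same-numbered MPTP and control arrays did not deviate together (correlations of -0.08, 0.00056 and 0.047), so the replicate number was not taken as a pairing. Alternatives changed the normalization, filter, probe set rule, pseudocount, arrays in the fit, array weights and replicates.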

Additional observations from a re-analysis of the deposited data

How the results depend on the processing

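Of the results named, 1 gene passed the test, and the count was 0 with MPTP and control arrays alone, with array weights, with arrays centred on their medians and with a replicate block, and 2 with no filter; leaving out 1 array gave 0 to 2. The log2 fold change of Gfap stayed between 1.06 and 1.24 without any 1 array. It was 1.14 with MPTP and control arrays alone (adjusted p = 0.112), 1.06 with array weights (0.0554), 1.10 with centring (0.0813) and 1.14 with no filter (0.143). The replicate numbers do not pair the arrays, and with the replicate block Gfap had 1.14 with adjusted p = 0.0726. The count of genes at an unadjusted p under 0.05 stayed within 1.5 times of 437 in all 20 alternatives. With no filter 387 genes were higher and 213 lower of 12393, and without MPTP 3 these were 208 and 127 of 7964. A share near 0.05 is expected with no true difference, so a steady count does not show that the genes differ. Genes whose groups do not overlap numbered 1349 with no filter, which tests more genes, and 1527 to 1797 with 1 array fewer, where fewer arrays have to separate. Sign agreement of probe sets was 46.7% with no filter, 72.0% when the 60th percentile was the filter and 45.3% to 63.9% without 1 array; the cause was not tested.

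Some genes with small values changed sign. Aif1 had -0.008 with cyclic loess and -0.0181 with quantile normalization, and Csf1r, Cx3cr1 and Mt1 had -0.0039, -0.0254 and -0.0053 with arrays centred on their medians. Without 1 array the range was -0.0132 to 0.1783 for Aif1, -0.1563 to 0.0618 for Btg2, -0.0243 to 0.1068 for Csf1r and -0.1466 to 0.2335 for Cx3cr1. It was -0.027 to 1.6324 for Il6ra, -0.0893 to 0.2367 for Junb, -0.0212 to 0.0915 for Mbp, -0.0025 to 0.0651 for Mt1 and -0.1156 to 0.0272 for Penk. For Ppp1r1b and Th it was -0.1794 to 0.0058 and -0.2409 to 0.0316. The cause was not tested. Among the list medians recomputed under an alternative, 941 moved by less than 1 SD between arrays and 55 by more. For genes near the filter, signal over background limits the precision.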
